A study of Arabidopsis thaliana with 15 samples.

Results

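A group of 71 Arabidopsis thaliana loci was expressed in wild-type seedlings and was at or near 0 counts in both the triple mutant ebs shl lhp1 and the emf1 mutant. The loci were chosen by their own counts. The level of a locus was its CPM, the count divided by the library total and multiplied by 1000000, which had to average at least 4 in WT and at most 0.3 in each of the 2 severe genotypes. Of 33602 counted loci, 77 met these limits, and 6 of those were left out by name (IRT1, CYP82C4, AOP2, LRX1, QQS and PIN5, among 12 named loci in all). The 71 members were 0.454% of the 15637 loci with at least 4 CPM in WT. Taken singly, the limits were wider, as 128 of those loci were at most 0.3 CPM in ebs shl lhp1 and 169 were so in emf1. The members' high WT level and low level in both severe genotypes are therefore the rule itself and are described without a test.

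Root hairs are outgrowths of single epidermal cells, and their tip growth uses a large set of wall proteins, among them extensins, arabinogalactan proteins and expansins. Xylem vessels form a thick secondary wall of cellulose, xylan and lignin under the control of NAC transcription factors of the VND group. Roots also take up iron and copper through reductases, metal transporters and the chelator nicotianamine. LHP1, EBS and SHL are readers of histone marks such as the Polycomb mark H3K27me3, and EMF1 works together with Polycomb complexes in plants.

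Messenger RNA was sequenced from whole seedlings of the Col-0 ecotype, 3 weeks old, with no treatment. The medium was Murashige and Skoog, diluted, and the day length was short (8 h of light, 16 h of dark). Wild type (WT), the single mutants lhp1 and emf1, ebs shl with 2 mutated genes and ebs shl lhp1 with 3 made up the 5 genotypes, each with 3 libraries that the design text calls biological repeats. The labels give no alleles and do not say how many plants went into a library, and genotypes are called here by their labels. The RNeasy Plus Mini kit was used for WT, lhp1 and ebs shl, and the miRNeasy Micro kit for both severe genotypes, so the kit and the severe genotypes cannot be told apart.

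Library totals were 11730989 to 16247262 counts, so 1 count was worth 0.0615 to 0.0852 CPM. EBS, the gene mutated in ebs shl, had 25.9 to 28.3 CPM in WT against 1.85 to 3.62 in ebs shl and 1.79 to 2.34 in ebs shl lhp1. EMF1 had 29.5 to 29.7 CPM in WT and 18.9 to 19.6 in emf1. LHP1 averaged 20.98 ± 1.08 CPM in WT (SD, n = 3) and 11.66 ± 0.0951 in lhp1, but 19.3 ± 1.83 in ebs shl lhp1, where its level did not set the triple mutant apart from WT. SHL was higher in the genotypes that carry its mutation, at 229 to 244 CPM in ebs shl and 149 to 199 in ebs shl lhp1 against 41.0 to 45.1 in WT. Leaf photosynthesis markers were abundant in every group, with summed levels of 41260 to 43926 CPM in WT, 28643 to 36860 in ebs shl lhp1 and, in emf1, 50571 to 55583.

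In the severe genotypes 2 libraries stood apart and held most of what was left of the members. Summed over the 71 members, the libraries had 6.22, 3.66 and 19.1 CPM in ebs shl lhp1 and 3.41, 21.0 and 2.01 CPM in emf1. Replicate 3 of ebs shl lhp1 held 310 of the 426 member counts of its genotype (72.8%), and replicate 2 of emf1 held 330 of 411 (80.3%). A total of 62 and 63 members had a count in these libraries, against 40 and 25 in the other ebs shl lhp1 libraries and 26 and 16 in the other emf1 libraries.

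Because the rule caps each member's mean, the height of this remainder is bounded by the choice of members, and genes outside the list give a view that it does not bound. For 14 root hair markers that are not members, the median level in percent of the WT mean was 0, 1.91 and 18.1 in replicates 1 to 3 of ebs shl lhp1 and 0.701, 9.84 and 0 in those of emf1. LRX1, among these 14, and IRT1, among the 38 markers summed below, met the limits and were left out by name. Their levels are therefore bounded as those of members are. The class III peroxidase PRX44, one of these markers, had 12.8, 10.8 and 7.16 CPM in WT, 0, 0 and 3.02 in ebs shl lhp1 and 0.06, 1.21 and 0 in emf1. For these root hair markers the same 2 libraries had the highest medians, but the summed level of the root markers did not follow. Summed over 38 markers of 5 root lists, members left out, the libraries had 251, 265 and 208 CPM in ebs shl lhp1 and 168, 146 and 155 CPM in emf1, lowest in the 2 libraries that stood apart. The sum of 8 genes of nutrient uptake was lowest there too. Its largest part in the severe genotypes was NRT3.1, with 101, 127 and 57.2 CPM in ebs shl lhp1 and 71.0, 47.0 and 66.1 in emf1. Single genes of the root lists went both ways, as SHR, from the endodermis list, was highest there. It had 4.35, 5.45 and 7.27 CPM in ebs shl lhp1 and 2.71, 6.16 and 3.57 in emf1. Of the 38 markers 11, 9 and 2 were at 0 in the ebs shl lhp1 libraries and 11, 4 and 15 in those of emf1, so the libraries that stood apart had the fewest at 0. What sets them apart was not tested, and with both left out 163 loci would meet the rule, among them all 71 members.

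**Figure D1:**
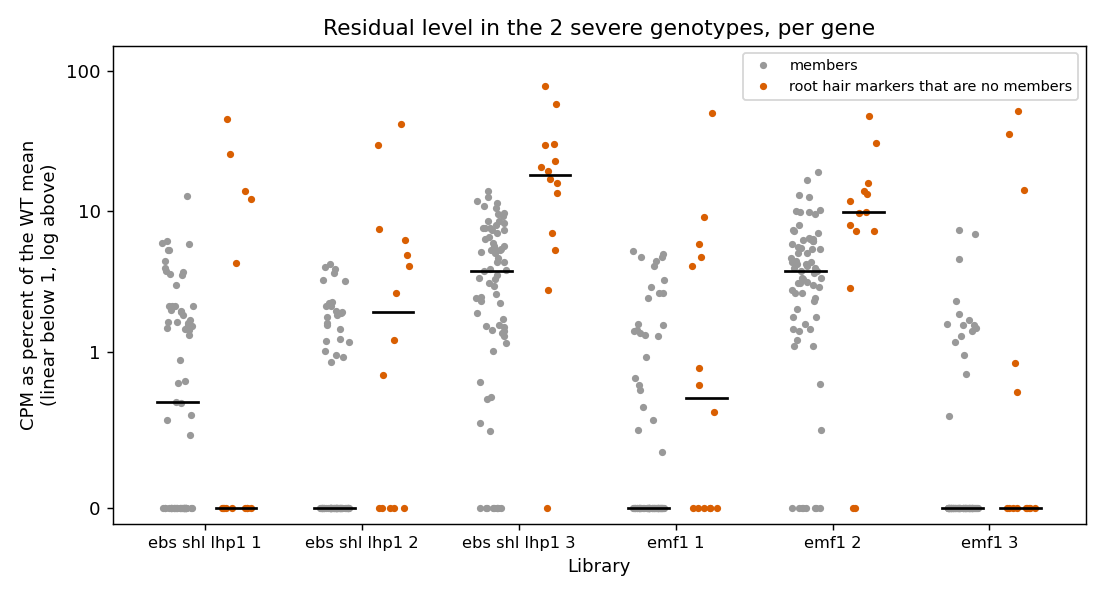
Level of each member (grey points) and of 14 root hair markers that are no members (orange points) in the 6 libraries of the severe genotypes, in percent of its WT mean (axis linear below 1 and logarithmic above), with black bars at the medians. For the members, replicate 3 of ebs shl lhp1 and replicate 2 of emf1 sit at medians of 3.73% and 3.75%, and the other 4 libraries at 0.678% or less.

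The members' summed level in the 3 other genotypes stayed between 395 and 579 CPM. The WT libraries had 579, 509 and 499 CPM (529 ± 43.2, SD, n = 3). The lhp1 libraries had 421, 566 and 456 CPM (481 ± 75.9, SD, n = 3), and the ebs shl libraries had 395, 466 and 470 CPM (444 ± 41.8, SD, n = 3). The lhp1 libraries overlapped those of WT, whereas all 3 ebs shl libraries lay below the lowest WT library. Members were chosen for a high WT level, so the sums set against WT are not free of that choice. In whole seedlings fewer cells of a type and less RNA per cell cannot be told apart.

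**Figure D2:**
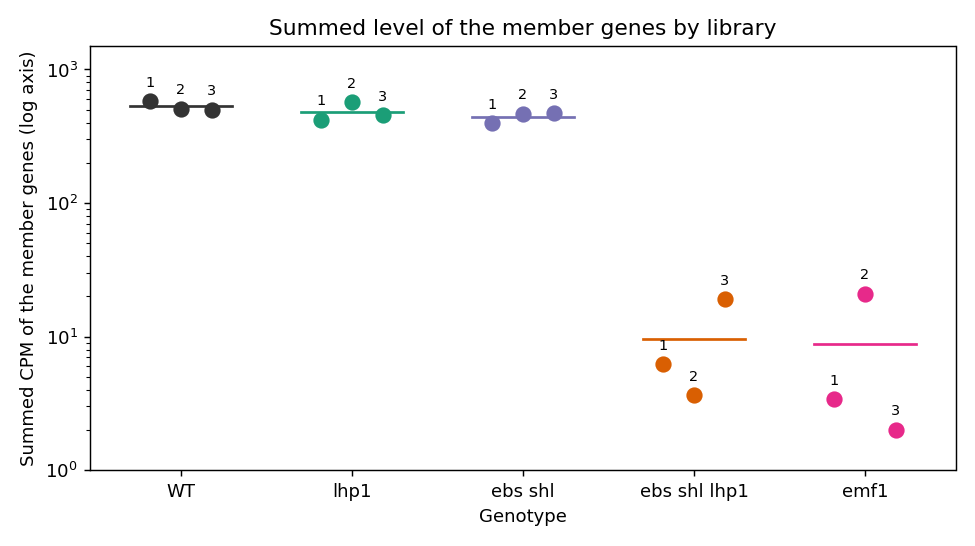
Summed CPM of the 71 members in each of the 15 libraries (points, numbered by replicate, log axis), with a line at the mean of each genotype. WT, lhp1 and ebs shl lie between 395 and 579 CPM, and no library of ebs shl lhp1 or emf1 exceeds 21.0 CPM.

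At the limits of the rule the members passed without a gap. Just inside the WT limit were AT3G01960 with 4.005 CPM and AT1G14390 with 4.01, and just outside it AT4G08400 with 3.99 and ACA9 with 3.83. Just inside the limit for the severe genotypes were AT3G27200 and AGP3, each with 0.297 CPM in the higher of the severe genotypes, and just outside it RHS19 with 0.308 and AT1G24320 with 0.311.

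Per length of exons the members' WT levels ran from 1.33 to 41.3 RPKM (CPM per kilobase of exon) with a median of 4.95. The highest were AT2G16367, a transcribed pseudogene, at 41.3 RPKM, AT3G45160, annotated as a putative membrane lipoprotein, at 33.3, and GSTF11, a glutathione S-transferase linked to glucosinolate synthesis, at 19.5. The members had a median exon length of 1323 bp, against 1870 bp over 15628 loci with at least 4 CPM in WT. Chromosomes 1 to 5 held 17, 6, 15, 13 and 20 members.

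Cell wall proteins and enzymes were the most numerous class, with 21 members. Among the 5 extensins and extensin-like loci (EXT10, EXT13, AT5G06630, AT4G08410 and the pseudogene EXT11), EXT10 had the most counts. Its WT libraries had 12.3, 10.4 and 6.69 CPM, its lhp1 libraries 9.06, 17.2 and 11.4, and its ebs shl libraries 13.6, 12.1 and 11.3, so these genotypes overlapped. Its counts in ebs shl lhp1 were 0, 0 and 3, which puts WT 130-fold above (95% counting interval 44.2 to 633). In emf1 they were 1, 10 and 0, which puts WT 40.2-fold above (22.2 to 81.1). These intervals are exact and cover counting error only.

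The summed level of the 5 extensin loci was 24.0 to 38.6 CPM in WT, 28.4 to 46.8 in lhp1 and 35.1 to 38.2 in ebs shl. They thus stayed near the WT level in both milder mutants, and 1 locus, AT5G06630, is separated from EXT10 by only 1 other locus. EXPA7, an expansin of root hair cells, had 6.65, 3.98 and 2.88 CPM in WT, 2.65, 5.77 and 3.30 in lhp1 and 3.88, 3.23 and 3.51 in ebs shl. Its 9 counts in ebs shl lhp1 were 0, 1 and 8 by library and its 7 counts in emf1 were 0, 7 and 0, almost all in the libraries that stood apart.

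Of the 3 arabinogalactan proteins (AGP22, AGP30 and AGP3), which are heavily glycosylated proteins of the cell surface, AGP30 had no count in any of the 6 severe libraries. WT had 8.01, 6.07 and 5.69 CPM of it, at least 87.3-fold above ebs shl lhp1 and at least 98.9-fold above emf1, where a genotype without a count is placed at 3 counts summed over its libraries. The other member without a count in all 6 was PCC1, named for control by pathogens and the circadian clock, whose WT libraries had 1.63, 9.10 and 2.34 CPM. That was the widest spread in WT, with the highest library 5.59 times the lowest, against a median of 1.71 over the members.

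Among wall-modifying loci, XTH17, a xyloglucan endotransglucosylase, had 9.71, 13.02 and 6.29 CPM in WT, 7.70, 10.8 and 7.88 in lhp1 and 3.81, 6.46 and 4.37 in ebs shl. GH9C1, an endoglucanase, had 7.23, 4.87 and 5.42 CPM in WT. The 7 loci of this kind summed to 30.2 to 51.9 CPM in WT, 28.3 to 47.2 in lhp1 and 25.98 to 28.04 in ebs shl. In this sum the ebs shl libraries lay below all of those of WT and lhp1, whereas XTH17 by itself overlapped WT. WT entered the rule, so the sum set against it is not free of the choice. Other wall members among the highest were GL22, a germin-like protein, at 9.91 ± 2.53 CPM in WT (SD, n = 3) and AT5G10130, of a pollen allergen and extensin family, at 9.03 ± 2.82.

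A set of 5 members belongs to the formation of the secondary wall of xylem. They were LAC11, a laccase of lignin formation, RXF12 and XYN3, glycosyl hydrolases of the kind that cuts xylan, TED7, a protein of vessel wall formation, and NAC007, also called VND4, a transcription factor of vessel differentiation. LAC11 had 13.9, 17.6 and 13.98 CPM in WT, 15.96, 20.7 and 24.6 in lhp1 and 16.9, 20.2 and 20.5 in ebs shl. Its counts were 1, 0 and 6 in ebs shl lhp1, where WT was 86.4-fold above (41.7 to 216), and 0, 8 and 2 in emf1, where WT was 68.5-fold above (37.0 to 143). XYN3 had 6.78, 9.54 and 7.69 CPM in WT, 10.5, 12.05 and 14.1 in lhp1 and 10.7, 13.4 and 14.03 in ebs shl, with all 6 libraries of the milder mutants above WT. Of all tested loci 17.8% lay wholly above WT in lhp1 and 21.3% in ebs shl.

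The summed level of the 5 xylem members was 40.4 to 49.4 CPM in WT, 45.2 to 67.9 in lhp1 and 54.3 to 71.4 in ebs shl, against at most 1.42 in ebs shl lhp1 and 1.78 in emf1. In ebs shl the sum lay above every WT library, in a set chosen after its values were seen. None of the 5 passed the test in either milder mutant. Nearest to it was RXF12 in ebs shl, with 13.5, 22.1 and 20.7 CPM against 10.6, 11.6 and 9.36 in WT, a log2 fold change of 0.78 ± 0.28 (SE) with a Benjamini-Hochberg adjusted p of 0.132 by edgeR's quasi-likelihood test.

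Metal handling was represented by NAS4, a nicotianamine synthase, BHLH101, a transcription factor of the iron deficiency response, FRO5, a member of the ferric and copper reductase family, and COPT2, a copper transporter. NAS4 had 37.5, 13.4 and 24.6 CPM in WT, 29.8, 23.03 and 16.1 in lhp1 and 8.68, 14.97 and 15.9 in ebs shl. Its counts were spread over more libraries, 2, 3 and 2 in ebs shl lhp1 (WT 142-fold above, 68.7 to 354) and 3, 7 and 0 in emf1. FRO5 had 8.40, 4.49 and 2.81 CPM in WT and no count in emf1.

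Among enzymes of secondary metabolism and defence, GSTF11 had 19.1, 14.5 and 21.1 CPM in WT, 16.6, 16.97 and 16.03 in lhp1 and 9.81, 15.04 and 13.5 in ebs shl. ESP (AT1G54040), the protein that turns glucosinolate breakdown towards nitriles, had 8.08, 12.6 and 11.3 CPM in WT, 7.22, 7.06 and 5.72 in lhp1 and 13.8, 15.8 and 14.2 in ebs shl. Its lhp1 libraries were all below WT and its ebs shl libraries all above, and neither difference passed the test. In all 6 severe libraries GSTF11 had at most 4 counts and ESP at most 9.

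Other members with many counts were SWEET13, a sucrose transporter, with 9.97, 7.96 and 15.9 CPM in WT, TAC1 (AT2G46640), a gene of branch angle, with 6.58, 9.04 and 8.36, and AT5G54370, annotated as similar to late embryogenesis abundant proteins, with 16.5, 10.2 and 11.3. AT3G45160 had 23.3, 24.96 and 27.2 CPM in WT, 23.2, 21.7 and 23.6 in lhp1 and 20.1, 31.3 and 25.3 in ebs shl. Its counts were 0, 0 and 7 in ebs shl lhp1 and 0, 8 and 0 in emf1, all in the 2 libraries that stood apart. PS2 (AT1G73010), a pyrophosphatase induced by phosphate starvation, varied between WT libraries, with 11.5, 2.53 and 9.03 CPM in WT. AT4G08780, of the peroxidase superfamily, had 5.41, 3.48 and 5.08 CPM in WT and 2.00, 3.21 and 0.471 in lhp1. AT2G38090, annotated as a homeodomain-like protein, had 4.23, 3.48 and 5.28 in WT, and its ratio of WT to emf1, 14.9-fold (8.54 to 28.5), was the lowest.

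Over all members the ratio of WT to ebs shl lhp1 ran from 15.8 to 208 for the 66 members with counts there and the ratio of WT to emf1 from 14.9 to 261 for 65 members. The highest ratios rested on 1 count each, with 95% counting intervals of 37 to 8264 for FRO5 in ebs shl lhp1 and 46.4 to 10329 for AT1G31690 in emf1. With the members at 0 placed at their bound the medians were 43.8 and 53.5. These depend on the 2 libraries that stood apart, since without those the median member level went from 0.144 to 0.0426 CPM in ebs shl lhp1 and from 0.106 to 0 in emf1. The rule sets the lowest of these ratios. The fit over all 20477 tested loci called 35.7% of them lower in ebs shl lhp1 and 34.6% higher (70.3% either way), and 33.9% lower and 30.7% higher in emf1 (64.6% either way), and nothing is read from the members in these comparisons.

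**Figure D3:**
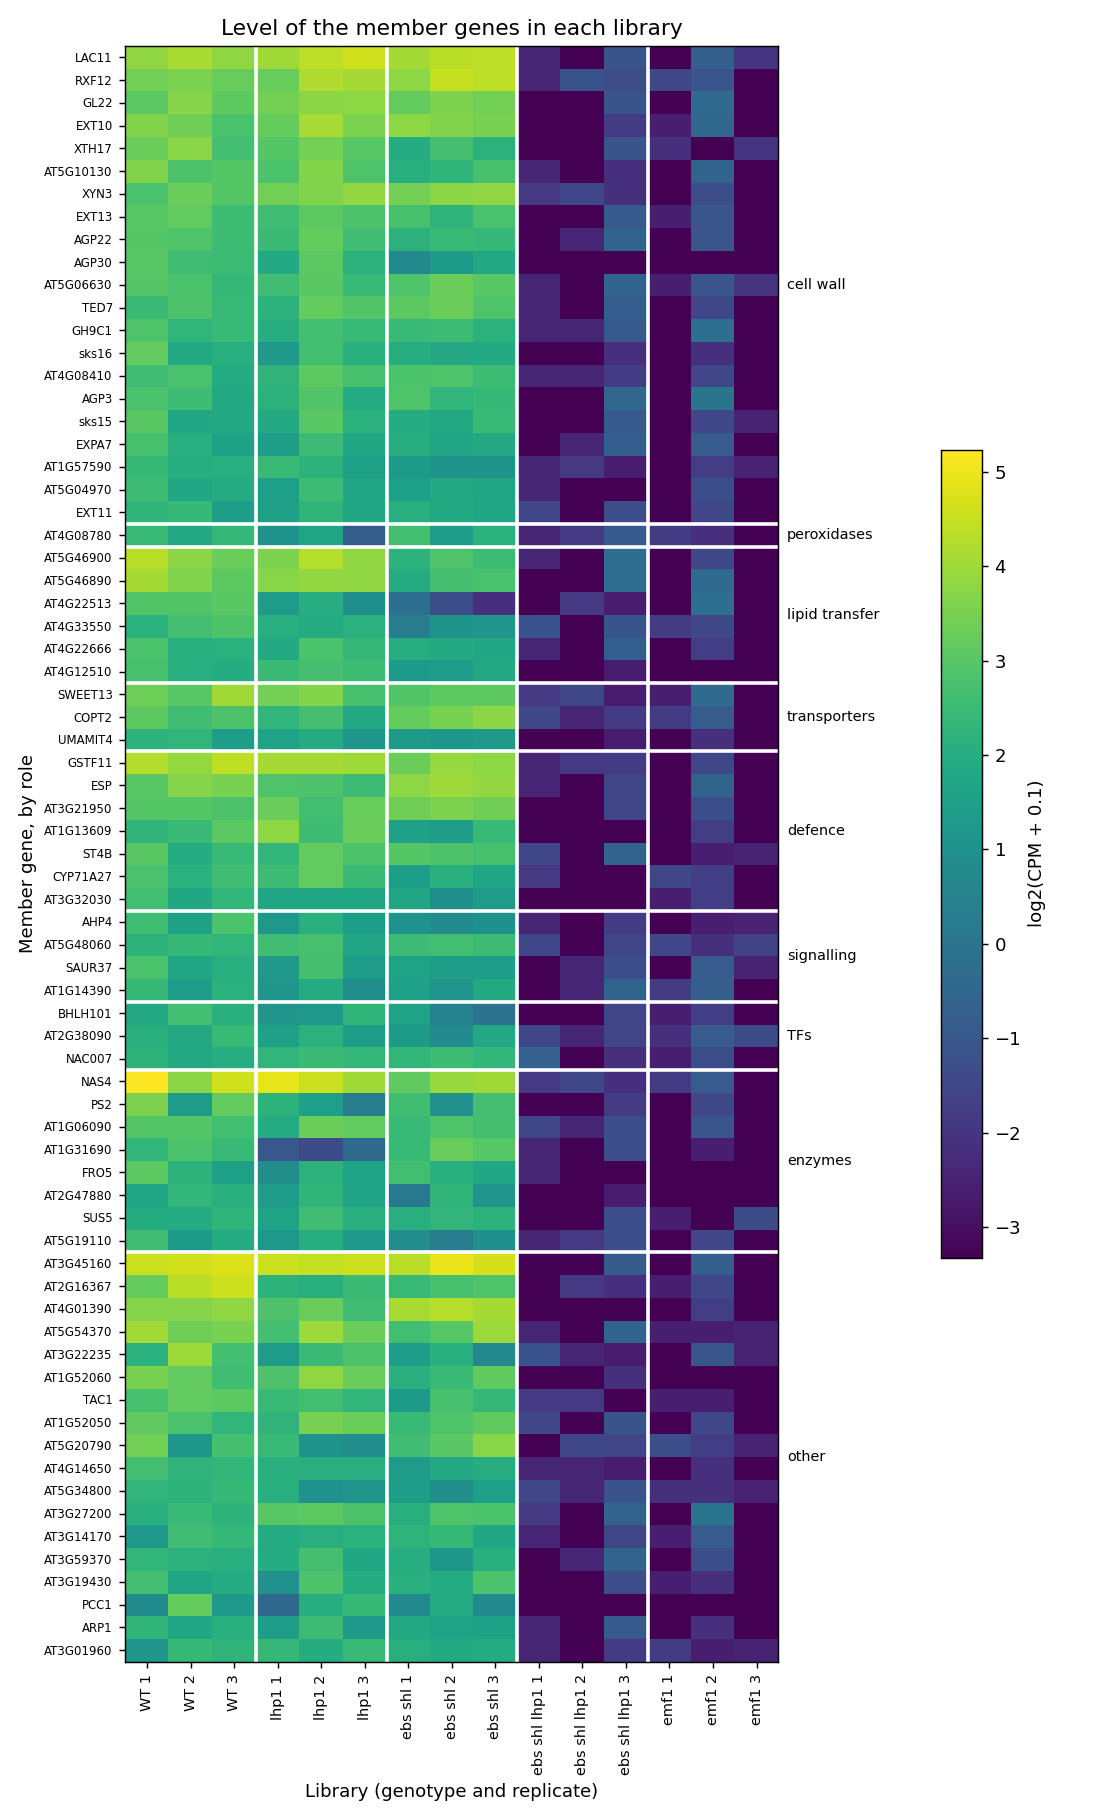
CPM of each of the 71 members (rows) in each of the 15 libraries (columns), on a colour scale of log2(CPM + 0.1) and grouped by role. Members have counts in all 9 libraries of WT, lhp1 and ebs shl, and the remainder in the severe genotypes is highest in replicate 3 of ebs shl lhp1 and replicate 2 of emf1.

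The next comparisons ask whether the milder mutants already showed lower levels of these loci. WT entered the rule, and lhp1 and ebs shl did not, so a member with a high WT mean was more likely to be chosen and the fold changes against WT are not free of the choice. Only ebs shl against lhp1 compares libraries that the rule did not use. Its p-values still come from the fit of all 15 libraries, whose scaling and spread include those that the rule used. In lhp1, 2 of the 71 members (2.82%) were lower and 0 higher, where 0.542% of all tested loci were lower and 0.772% higher (1.31% either way). The 0 was edgeR's count, no member being higher at an unadjusted p under 0.05 either. DESeq2 called 3 lower and 0 higher, and a fit of only the 2 genotypes 4 lower and 0 higher. The median log2 fold change was -0.22 over the members and 0.00 over all loci, and -0.06 over the members without WT replicate 1. The count was 1 without WT replicate 2 or 3 or lhp1 replicate 1 or 2.

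The copper amine oxidase AT1G31690, of a family that oxidises amines, had the largest fold change in lhp1. WT had 5.02, 6.89 and 5.42 CPM, lhp1 0.401, 0.285 and 0.673, and ebs shl 5.37, 9.45 and 7.94. The lhp1 libraries were far below all others of the 3 genotypes, while ebs shl overlapped WT. The level fell by 3.70 ± 0.44 on the log2 scale in lhp1 against WT (Benjamini-Hochberg adjusted p of 0.000399 from edgeR's quasi-likelihood test). The other member lower in lhp1 was the transcribed pseudogene AT2G16367, with 9.19, 20.03 and 23.6 CPM in WT and 4.57, 4.13 and 5.59 in lhp1.

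AT2G16367 was also lower in ebs shl, at 5.37, 6.62 and 7.32 CPM. Its log2 fold change was -1.95 ± 0.34 in lhp1 and -1.51 ± 0.34 in ebs shl, with Benjamini-Hochberg adjusted p of 0.0102 and 0.0124 by edgeR's quasi-likelihood test. Both comparisons use the same WT libraries, whose highest value was 2.57 times the lowest. It was the only member called in both, and the calls held in 9 and 10 of 13 alternative fits.

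In ebs shl, 7 of the 71 members (9.86%) were lower and 0 higher than in WT, where 2.52% of all tested loci were lower and 5.31% higher (7.83% either way). At an unadjusted p under 0.05, 22 members were lower and 2 higher, while DESeq2 called 11 lower and 0 higher and a fit of only the 2 genotypes called 10 lower and 2 higher. The median log2 fold change was -0.44 over the members, with 49 of 71 below 0. Over all loci it was 0.00, with 50.4% below 0. The count was 1 without WT replicate 3 or ebs shl replicate 1, 3 without WT replicate 1 or ebs shl replicate 2, and 4 without WT replicate 2 or ebs shl replicate 3. The libraries of ebs shl lay wholly below WT for 22 members and wholly above for 9, where 9.92% and 21.3% of all tested loci did so. In lhp1 the libraries lay wholly below WT for 10 members and above for 3, where 5.92% and 17.8% of all tested loci did so.

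The largest fold change in ebs shl was that of AT4G22513, of a superfamily annotated as lipid transfer proteins, inhibitors and seed albumins, many of them small secreted proteins. WT had 7.36, 7.33 and 8.16 CPM, lhp1 2.57, 3.92 and 1.82, and ebs shl 0.777, 0.315 and 0.123. The 3 genotypes did not overlap. In ebs shl it fell by 4.29 ± 0.68 on the log2 scale against WT (19.5-fold, Benjamini-Hochberg adjusted p of 0.00119 from edgeR's quasi-likelihood test). In lhp1 its log2 fold change of -1.53 did not pass, with a Benjamini-Hochberg adjusted p of 0.274 from the same edgeR test. The locus overlaps an exon on the opposite strand, so its level is uncertain, and 47 annotated loci lie between it and EBS.

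All 6 members of the lipid transfer protein family had lower means in ebs shl than in WT. Their summed level was 41.4 to 61.8 CPM in WT, 40.2 to 54.8 in lhp1 and 16.5 to 22.1 in ebs shl, where every library was below all of those of the other 2 genotypes. AT5G46890 and AT5G46900, which are direct neighbours on the same strand, had 16.9, 12.3 and 8.29 CPM and 19.7, 13.4 and 9.83 CPM in WT. In ebs shl they had 3.74, 6.38 and 6.77 CPM and 4.52, 7.17 and 5.85 CPM. Of the 6, AT4G22513 and AT4G33550 passed the test against WT, the latter with 4.30, 6.26 and 7.02 CPM in WT and 1.13, 2.05 and 2.09 in ebs shl (log2 fold change -1.79).

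The further members lower in ebs shl were AHP4, a histidine phosphotransfer protein of cytokinin signalling (log2 fold change -1.57), AGP30 (-1.44), AT1G57590, a locus annotated as a pectin acetylesterase (-1.10), and AT5G34800, annotated as a pseudogene (-1.06). AHP4 had 5.93, 2.91 and 6.96 CPM in WT, 2.25, 4.21 and 2.63 in lhp1 and 1.98, 1.65 and 1.85 in ebs shl. AGP30 had 1.55, 2.44 and 3.51 CPM in ebs shl and 3.69, 8.27 and 4.45 in lhp1. Benjamini-Hochberg adjusted p were 0.0157, 0.0400, 0.0449 and 0.0450 by edgeR's quasi-likelihood test, and each of these 4 lost its call in 5 to 7 of 13 alternative fits.

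Between ebs shl and lhp1, whose libraries the rule did not use, 2 members (2.82%) were lower in ebs shl and 3 (4.23%) higher. Of all tested loci 1.39% were lower and 3.67% higher (5.06% either way). The share higher was near that of all loci. DESeq2 called 7 lower and 4 higher, and a fit of only these 2 genotypes 8 lower and 5 higher. The count of 5 became 2 or 3 when any single library of either genotype was left out. AT1G31690 was 16.4-fold higher in ebs shl (log2 fold change 4.04 ± 0.44), with a Benjamini-Hochberg adjusted p of 9.8e-05 from edgeR's quasi-likelihood test. AT4G01390, annotated as a TRAF-like protein, had 7.14, 9.55 and 6.06 CPM in lhp1 against 17.1, 19.4 and 16.8 in ebs shl, with WT between at 12.7, 12.8 and 13.98. Its log2 fold change was 1.24 ± 0.23 with a Benjamini-Hochberg adjusted p of 0.00812 by edgeR's quasi-likelihood test. It overlaps an exon on the opposite strand.

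COPT2 was also higher in ebs shl, at 9.11, 11.3 and 13.2 CPM against 4.81, 6.49 and 3.64 in lhp1 and 8.53, 6.07 and 7.09 in WT (log2 fold change 1.19). Lower in ebs shl than in lhp1 were AT4G22513 (-2.75) and AT4G12510, also of the lipid transfer protein family (-1.06), the latter with 2.40, 2.52 and 3.51 CPM against 5.53, 6.42 and 5.86. For COPT2, AT4G22513 and AT4G12510 the Benjamini-Hochberg adjusted p of edgeR's quasi-likelihood test were 0.0351, 0.0393 and 0.0453, and the calls held in 7, 7 and 5 of 13 alternative fits. The libraries of ebs shl lay wholly below lhp1 for 17 members and wholly above for 6, where 16.7% and 15.1% of all tested loci did so. In all, 11 of the 71 members passed the test in at least 1 of the 3 comparisons.

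**Figure D4:**
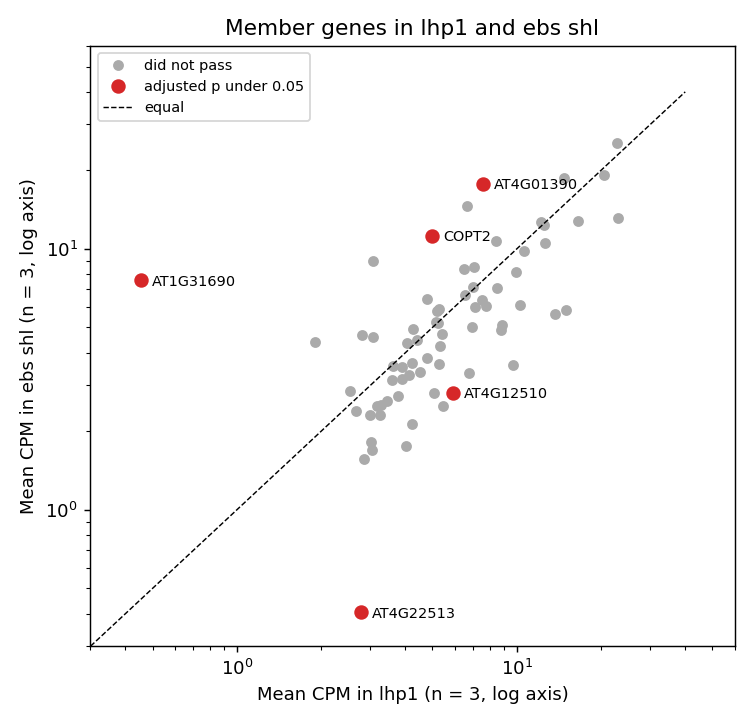
Mean CPM of each member (n = 3 libraries, log axes) in lhp1 on the horizontal axis and in ebs shl on the vertical axis, with a dashed line where both are equal. The 5 members that passed the test between the 2 genotypes are red and named, and AT1G31690, 16.4-fold higher in ebs shl, lies farthest above the line.

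**Figure D5:**
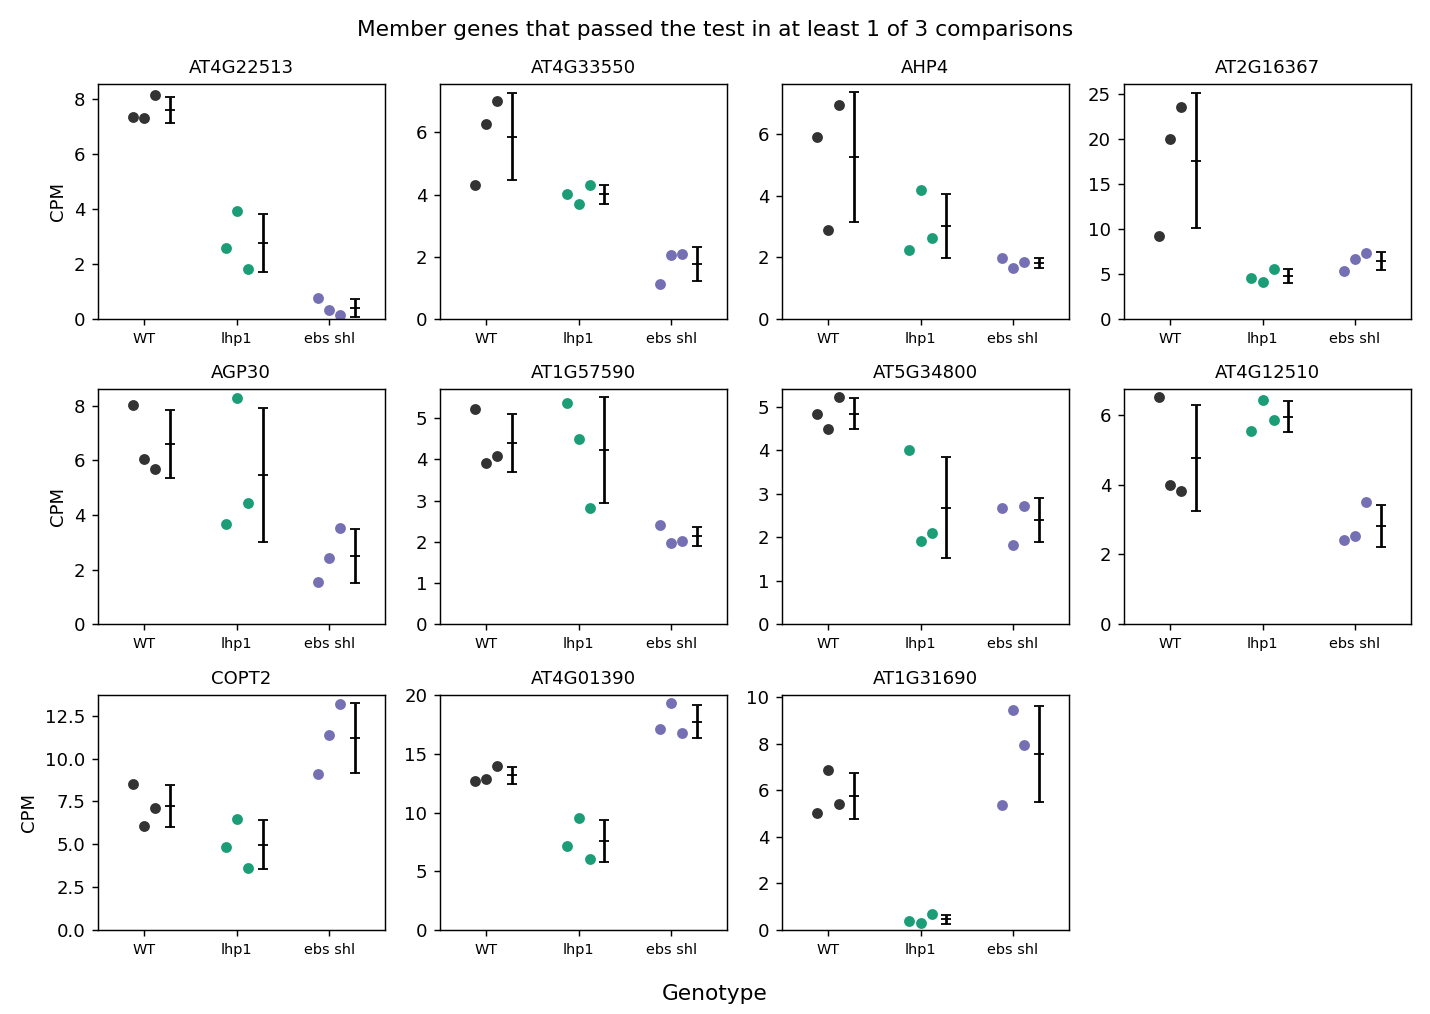
CPM of the members called in at least 1 comparison among WT, lhp1 and ebs shl, with a point for each library and bars for the mean ± SD (n = 3). AT1G31690 is low in lhp1 alone among the 3 genotypes, and AT4G22513 falls from 7.33 to 8.16 CPM in WT to 0.123 to 0.777 in ebs shl.

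Marker genes of root tissues, most of them outside the list, gave a comparison for the tissue. All 15 root hair markers tested were lower in ebs shl lhp1 and in emf1. All 15 stayed called in both with the 2 libraries that stood apart left out. Of these markers EXPA7 is a member, and LRX1 and COBL9 were left out of the list by name. The rule itself fixed the fall of EXPA7 and of LRX1, which met its limits. Of 8 tested genes of the endodermis list 6 were lower in each, of 3 root cap markers 2 and 3, and of 3 root meristem markers 2 and 3. Since 35.7% and 33.9% of all tested loci were lower in these comparisons, the counts of the lists with 3 genes say little. Without the 2 libraries that stood apart, 5 genes of the endodermis list, 1 root cap and 2 trichome markers were called lower in ebs shl lhp1. Of 3 trichome markers 3 were lower in each. Of 7 genes of root nutrient uptake 5 were lower and 2 higher in ebs shl lhp1, and 6 lower and 1 higher in emf1. Among the lower ones were IRT1 and FRO2, left out of the list by name, and IRT1 met the limits of the rule.

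Markers of other tissues also differed from WT. In ebs shl lhp1, 4 of 4 flower and 2 of 2 tested seed markers were higher and 3 of 7 leaf photosynthesis markers lower. Of all tested loci 34.6% were higher there and 35.7% lower. The tested seed markers, EM1 and EM6, averaged 2.09 and 2.01 CPM in ebs shl lhp1. The rest of the seed list, OLEO1, CRA1 and CRC, did not pass the filter, at 0.0979, 0.265 and 0.0284 CPM there. In emf1, 3 of 4 flower and 5 of 7 leaf photosynthesis markers were higher, where 30.7% of all tested loci were. In lhp1 and in ebs shl, 4 of 4 flower markers were higher.

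The root lists did not go to 0 as a whole. The 14 root hair markers outside the members summed to 84.4 to 134 CPM in WT, 24.3 to 52.6 in ebs shl lhp1 and, in emf1, 27.1 to 30.9. Most of the sum in the severe genotypes came from CSLD3, a cellulose synthase-like gene of tip growth. The 10 genes of the endodermis list summed to 88.8 to 109 CPM in WT, 36.1 to 49.3 in ebs shl lhp1 and, in emf1, 45.7 to 49.0. In lhp1 and in ebs shl, 0 of the 36 tested genes of the 5 root lists passed edgeR's test or that of DESeq2 against WT, and 2 and 5 were at an unadjusted p under 0.05 in edgeR. Between ebs shl and lhp1, 1 of the 36 passed edgeR's test and 2, NRT2.1 and NRT3.1, passed that of DESeq2. The part of the root lists in the levels of the members was not tested.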

How the data were processed

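The deposited values are raw counts of reads per locus, 1 file per library. Per the submitters' processing notes the authors used TopHat2 2.1.1, HTSeq and edgeR with TAIR10; the strand setting of the counting is not given in the sources used here. Members and lists were chosen with earlier results of these data known, and roles were assigned by hand from RefSeq descriptions. Counts of all 15 libraries were fitted together in R 4.3.3 with edgeR 4.0.16 (filterByExpr, TMM, 1 mean per genotype, glmQLFTest), with p-values adjusted by Benjamini-Hochberg over 20477 tested loci; called means an adjusted p under 0.05. All 71 members passed the filter, also when it was applied without the WT libraries. Loci were described by CPM of library totals, as in the rule. The fit was tested on simulated counts. DESeq2 1.42.0, other filters and scaling, a replicate block, fits of 2 genotypes and fits without single libraries were alternatives.

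Named loci are the 20 with most WT CPM, called members, the top 2 of each role, those at the thresholds and direct neighbours. Others, such as the extensin, arabinogalactan and xylem sets, were chosen after their values were seen. Gene names, exon lengths and order come from RefSeq TAIR10.1, which is not the counts' build, so no coordinates are given. Exons on the opposite strand overlap 10 members (EXPA7, AT1G14390, GH9C1, AT3G01960, GSTF11, AT4G01390, AT4G08780, AT4G22513, LAC11 and BHLH101), and 3 have a near-identical copy at 95% identity over 50% of the length by BLAST 2.17.0 (GSTF11, AT3G22235 and AT3G32030). Their levels are uncertain.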

Additional observations from a re-analysis of the deposited data

How the results depend on the processing

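The 14 called results of single members kept direction and threshold in 128 of 182 alternative fits, lost the call in 54 and reversed in 0. AT1G31690 in both of its comparisons, AT4G22513 against WT and AT4G01390 in ebs shl against lhp1 kept theirs in all 13. Members called in lhp1, ebs shl and ebs shl against lhp1 were 2, 7 and 5; fits of only the 2 genotypes called 4, 12 and 13, and DESeq2 called 11 in each of the last 2. Without the 2 libraries that stood apart, an alternative added after seeing the data, the last 2 counts were 13 and 8. Leaving out 1 library gave 1 to 2, 1 to 4 and 2 to 3 members. The replicate block gave 2, 5 and 2. Among WT, lhp1 and ebs shl the 9 correlations of same-numbered libraries were -0.333 to 0.175 with 1 over 0.1. No pairing by number was seen in these, which cannot exclude it, and the severe genotypes were not checked. The rule found 115 loci at 3 CPM or more in WT, 46 at 5, 44 at 0.2 or less in the severe genotypes and 138 at 0.5. With CPM scaled by TMM factors it found 59, all of them members. These factors were 0.817 to 0.933 in the severe libraries and 1.04 to 1.08 in WT. The ratios of WT to the severe genotypes, given by library total, would be lower with them. Leaving out 1 library gave 58 to 104, and leaving out the 2 that stood apart 163. Causes were not tested. A level under 1 count, 0.0615 to 0.0852 CPM, is not resolved in a library.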

Other observations

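Members that lie close together on a chromosome were few. The lectin-like loci AT1G52050 and AT1G52060 are direct neighbours, as are AT5G46890 and AT5G46900, and 2 loci lie between PCC1 and AT3G22235. AT1G52050 had 8.80, 6.76 and 4.88 CPM in WT and AT1G52060 had 11.2, 8.85 and 5.95, both in the same order of libraries. AT3G22235 had 4.30, 15.5 and 6.29 CPM in WT, highest in the library where PCC1 was highest at 9.10. Among the WT libraries, 37 of the 71 members were highest in replicate 1, and the share of all loci was not counted.

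Means in percent of WT ran from 7.85 to 167 over the members in lhp1 and from 5.32 to 178 in ebs shl. In lhp1 6 members were under 50% of WT, and in ebs shl 12 were. The share of all tested loci under 50% was not counted, and WT entered the rule, so nothing is read from these counts.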
